A study of Mus musculus with 6 samples.

Results

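Kinesins and cytoplasmic dynein are the motors that carry cargo along microtubules, kinesins mostly toward the cell periphery and dynein, with its partner complex dynactin, toward the cell body. Some kinesins haul vesicles, mitochondria and RNA down the axon. Others work on the spindle of dividing cells and mostly decline when a neuron leaves the cell cycle. MNs have long axons and are known to depend on both directions of transport. The genes described here are the kinesin heavy chains (Kif and Kifc), kinesin light chains (Klc), dynein subunits (Dync, Dynll, Dynlrb) and dynactin subunits (Dctn), chosen by gene symbol alone. There were 61 of them among 34433 symbols, and a symbol listed more than once was represented by its most abundant entry.

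MNs were differentiated from the Hb9 control mESC line (genotype wildtype for mSmn) and from the A2 SMA line (SMN2+/+;mSmn-/-), both of FVB/N background. Both lines carry the human SMN2 transgene and the HB9:eGFP transgene, in which the promoter of Hb9 drives GFP. Both were treated with 1 µM RA and 1 µM SAG, an agonist of Smoothened, for 5 days before GFP-positive cells were sorted. Each genotype is 1 cell line, so genotype and line cannot be told apart. RNA from 3 samples per genotype was sequenced, and the deposited table gives 1 FPKM value per gene and genotype (fragments per kilobase of exon, scaled to the mapped fragments of a library). It gives no values of single samples and no read counts behind its values. The authors' own test results in it were not used, so no difference below carries a test. "Higher" and "lower" refer to these 2 pooled values.

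The deleted gene, Smn1, had 137 FPKM in the control cells and 5.26 FPKM in the SMA cells. Ratios were formed where the larger value reached 1 FPKM and neither value was 0. Over the 14926 such entries with a symbol, the median log2 ratio of A2 over Hb9 was -0.29, and 65.9% of entries were lower in A2 SMA MNs. A difference of more than 2-fold was seen downward for 22.4% and upward for 6.83%. With ratios centred on the median gene these shares were 16.5% and 10.4%, and the part of all such differences that pointed upward went from 23.4% to 38.8%. The filter was passed by 58 of the 61 motor genes. Kif12, Kif2b and Dynlrb2 stayed below 1 FPKM in both genotypes.

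Markers of cell state differed widely between the genotypes. All 10 pan-neuronal genes that could be measured were more than 2-fold lower in A2 SMA MNs, their summed level being 1542 FPKM in Hb9 and 160 FPKM in A2. Of 6 MN genes past the filter, 5 were more than 2-fold lower, with Lhx3 at 0.348 FPKM and Chat at 0.344 FPKM in A2 SMA MNs, whereas Mnx1, the gene of Hb9 and thus of the sorting reporter, had 41.2 and 44.2 FPKM. All 8 pluripotency genes were more than 2-fold higher in A2 (summed level 240 FPKM in Hb9 and 1573 FPKM in A2). Of 12 proliferation genes, 9 were higher and 3 lower, none past 2-fold, and all 12 lay above the median gene (summed level 1414 and 1597 FPKM). Fibroblast genes, which feeder cells would carry, summed to 69.6 and 36.6 FPKM, glial genes to 66.5 and 20.6 FPKM, and genes of multiciliated cells to 24.1 and 9.99 FPKM. No gene of these lists that is in the table was at 0. In sorted bulk RNA, fewer neurons and less motor RNA per neuron cannot be told apart, and the part of these markers in the results below was not tested.

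Over all roles, 42 of the 58 motor genes had a lower level in A2 SMA MNs and the other 16 a higher one, beside the 65.9% of all genes that were lower. More than 2-fold differences numbered 14 downward and 2 upward, to be read against the 22.4% and 6.83% of all genes. The median log2 ratio was -0.60, and relative to the median gene 37 of the 58 were lower. The roles separated these genes. Axonal kinesins had a median log2 ratio of -2.02, dynein and dynactin subunits together one of -0.83, and mitotic kinesins one of 0.44. The axonal median minus the mitotic one was -2.46 on the log2 scale, a 5.50-fold gap that scaling the genotypes leaves as it is. The gap depends on the lists, which were drawn up with earlier results of these data known: with the other cargo kinesins counted as axonal it was -1.41.

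**Figure D1:**
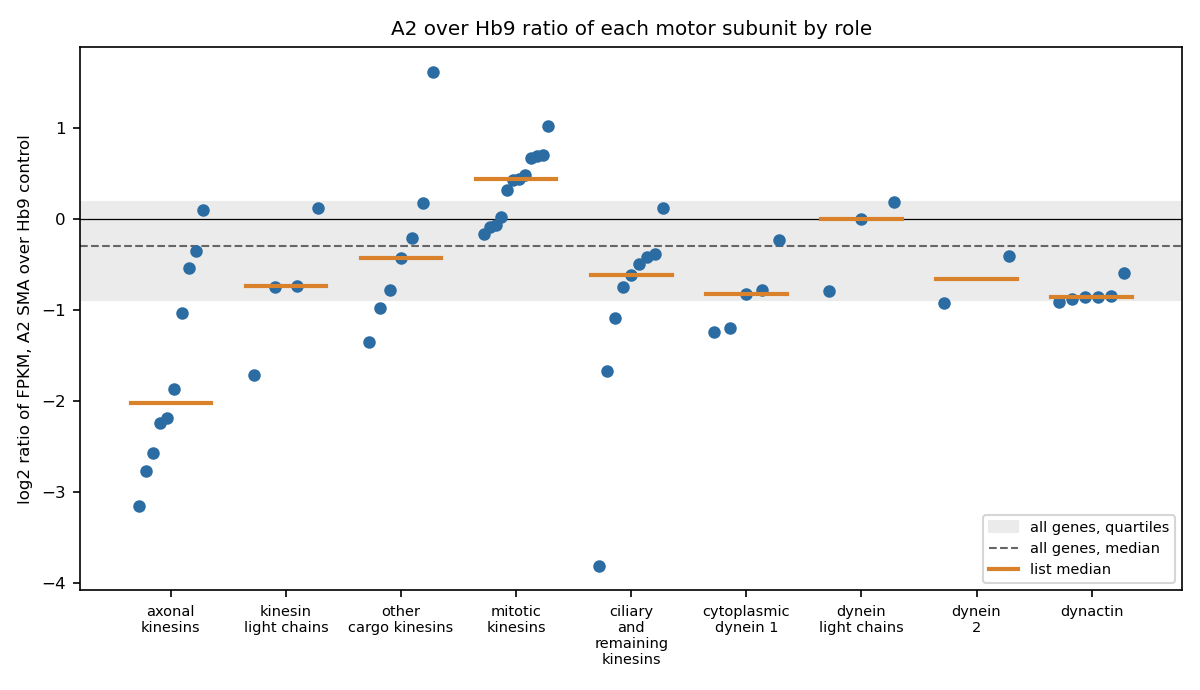
Log2 ratio of FPKM in A2 SMA over Hb9 control MNs for each of the 58 motor genes past the filter (points), grouped by role, with the median of each role (orange line) and the median and quartiles of all 14926 entries (dashed line and grey band). All 12 mitotic kinesins lie above the dashed line, and 9 of the 10 axonal kinesins lie below the lowest mitotic one.

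In Hb9 control MNs the most abundant of these transcripts were Dynll2, Dync1h1, Klc1, Kif5c and Kif1b, at 287, 239, 207, 171 and 167 FPKM. In A2 SMA MNs the order was Dynll2 at 165, Dynlrb1 at 156, Dync1h1 at 139, the locus of Kif22 at 127 and Kif5b at 106 FPKM. Kif5c and Kif1b, which led the kinesins in the control cells, stood at 19.3 and 36.7 FPKM. FPKM is per exon length, which lets these levels be set side by side only roughly. Klc1, Dynlrb1 and Kif22 lie in intervals with other entries of up to 18.5, 96.5 and 217 FPKM. Dynlrb1, Kif22 and Kif5b have the status FAIL, which is explained below.

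**Figure D2:**
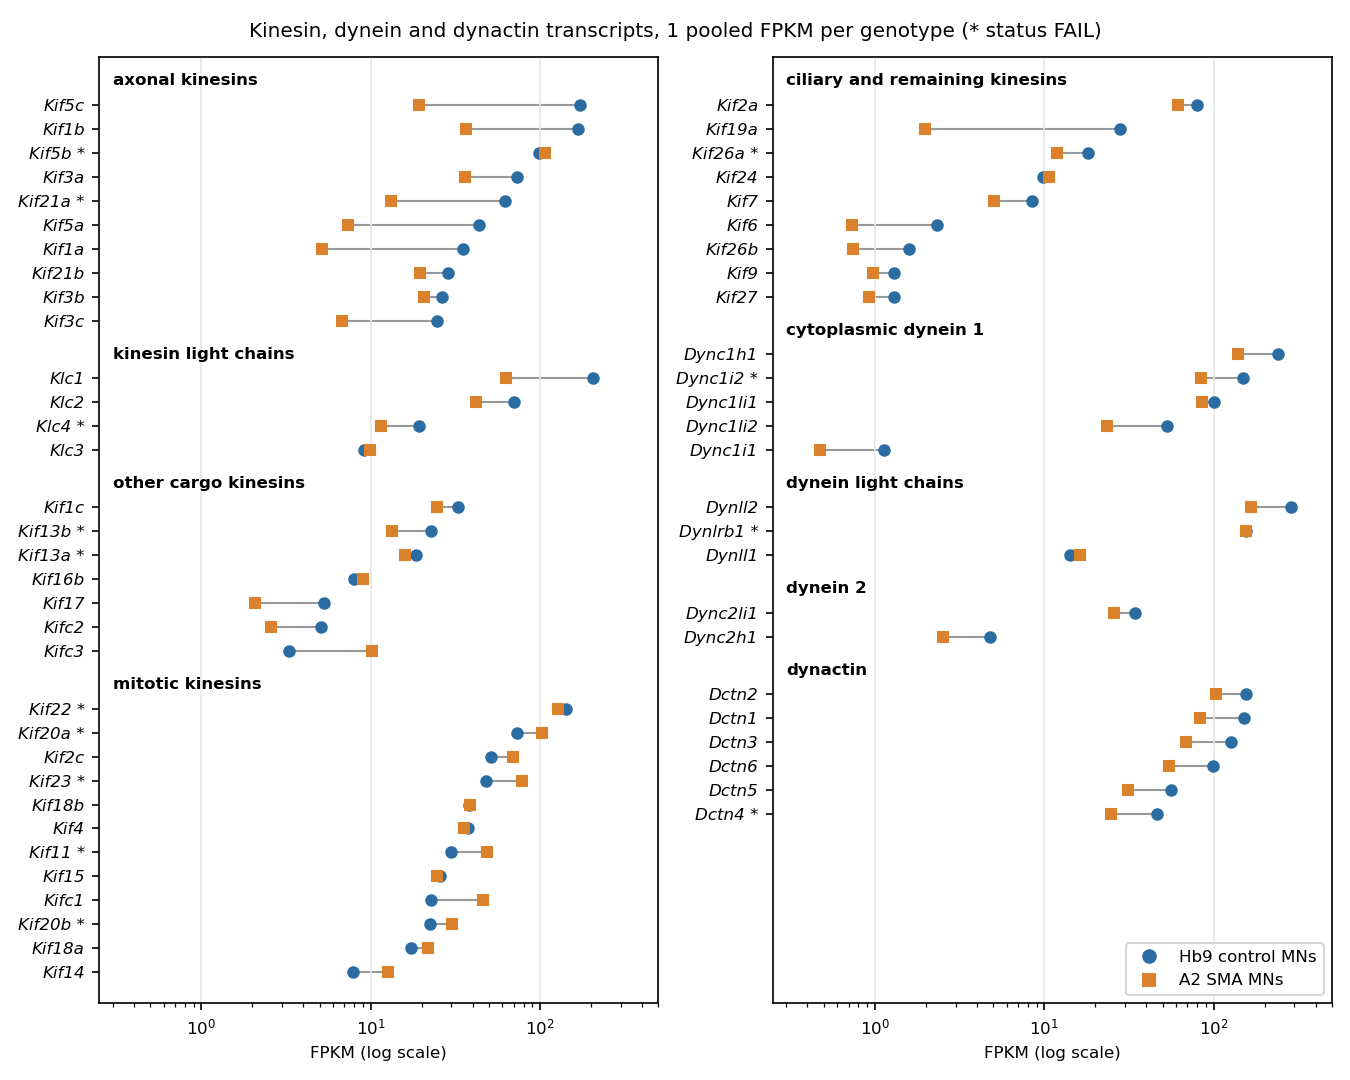
FPKM on a log scale for the 58 motor genes past the filter, in Hb9 control MNs (blue circles) and A2 SMA MNs (orange squares), 1 pooled value each, sorted by the Hb9 level within a role. The gaps are widest for Kif19a, Kif5c, Kif1a and Kif5a, and circle and square nearly coincide for Dynlrb1, Kif18b, Kif15 and Kif4. An asterisk marks the status FAIL.

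Kinesin-1, the classic motor of fast axonal transport, has its heavy chain encoded by Kif5a, Kif5b and Kif5c. Kif5a and Kif5c are the neuronal forms and Kif5b is made in most cells. Kif5c had 171 FPKM in Hb9 and 19.3 FPKM in A2, an 8.87-fold difference (log2 ratio -3.15). Only 3.73% of all genes had a lower ratio. Its locus spans 49474812 to 49630298 on chromosome 2 of NCBI m37. Kif5a had 43.7 and 7.37 FPKM, which is 5.94-fold lower in A2 (log2 ratio -2.57). Kif5b was level, with 99.0 FPKM in Hb9 and 106 FPKM in A2 (log2 ratio 0.11, and 0.40 relative to the median gene).

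The 3 heavy chains thus held different places in each genotype. They summed to 314 FPKM in the control cells and to 133 FPKM in the SMA cells, 2.36-fold lower. Kif5c made up 54.5% of that sum in Hb9 and 14.5% in A2, while Kif5b made up 31.5% and 80.0%. The FPKM of Kif5c was 1.73 times that of Kif5b in the control cells and 0.181 times in the SMA cells. Kif5b has the status FAIL, by which Cuffdiff marks an entry whose testing stopped on a numerical error. Its FPKM is still listed.

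The kinesin light chains, which couple kinesin-1 to its cargo, showed a similar summed difference, from 305 FPKM in Hb9 to 126 FPKM in A2 (2.42-fold). Klc1, the light chain most abundant in neurons, accounted for most of it, with 207 and 63.1 FPKM (log2 ratio -1.71). Klc2 had 69.9 and 41.6 FPKM, Klc4 had 19.2 and 11.5 FPKM (status FAIL), and Klc3 had 9.10 and 9.92 FPKM. Klc1 held 67.8% of the light chain sum in Hb9 and 49.99% in A2. Klc1, Klc3 and Klc4 lie in intervals shared with expressed neighbours. The library kit does not mark strand. Whether exons of these genes overlap was not examined, so how far their reads mix is not known.

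**Figure D3:**
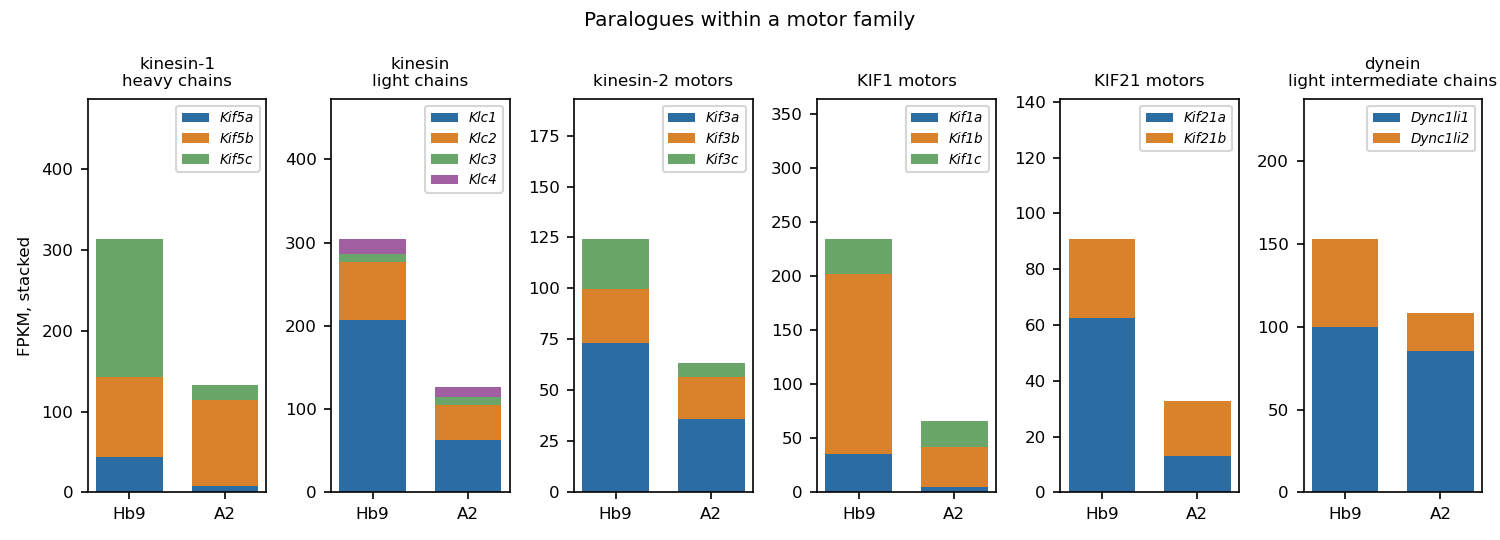
FPKM of the members of 6 motor families, stacked, in Hb9 control and A2 SMA MNs (bars from 0, a separate axis for each family). The kinesin-1 bar is mostly Kif5c in Hb9 and mostly Kif5b in A2, and the KIF1 bar goes from 235 to 66.4 FPKM.

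Kinesin-3 motors of the KIF1 group carry synaptic vesicle precursors and mitochondria. Kif1a, which is largely confined to neurons, had 35.1 FPKM in Hb9 and 5.17 FPKM in A2, 6.79-fold lower (log2 ratio -2.76). Kif1b had 167 and 36.7 FPKM, a log2 ratio of -2.18. Kif1c, a widely made relative placed with the other cargo kinesins, had 33.0 and 24.5 FPKM (log2 ratio -0.43). The share of Kif1c in the KIF1 sum was 14.1% in Hb9 and 36.9% in A2.

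Kinesin-2 is a complex in which Kif3a pairs with Kif3b, in cilia and in axons, or with Kif3c, the form enriched in neurons. Kif3a had 73.4 FPKM in Hb9 and 35.8 FPKM in A2, just past 2-fold lower (log2 ratio -1.04, and -0.75 relative to the median gene, which is short of 2-fold). Kif3b differed little, with 26.5 and 20.7 FPKM (log2 ratio -0.35, and -0.06 relative to the median gene). Kif3c had 24.6 and 6.76 FPKM, 3.64-fold lower (log2 ratio -1.86), in an interval shared with Asxl2. Kif3a outnumbered Kif3c 2.99 to 1 in Hb9 and 5.30 to 1 in A2, and outnumbered Kif3b 2.78 to 1 and 1.73 to 1.

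Kif21a and Kif21b are kinesin-4 motors that restrain microtubule growth in axons and dendrites. Kif21a had 62.5 FPKM in Hb9 and 13.2 FPKM in A2 (log2 ratio -2.24, status FAIL), and Kif21b had 28.5 and 19.6 FPKM (log2 ratio -0.54). Kif21a was the more abundant of the pair in the control cells, with 68.7% of their sum, and the less abundant in the SMA cells, with 40.3%. Of the 10 axonal kinesins, 9 were lower in A2, 7 of them past 2-fold, beside 65.9% and 22.4% of all genes, and Kif5b was the one exception in direction. Without the 2 that have the status FAIL the median stayed at -2.02.

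Of the 7 other cargo kinesins 5 were lower in A2 and 2 higher, with a median log2 ratio of -0.43, a share close to that of all genes. Kif17, a dendritic and ciliary motor, had 5.28 FPKM in Hb9 and 2.08 FPKM in A2 (log2 ratio -1.35), in an entry it shares with Sh2d5. Kifc2, a minus-end motor of neurons, had 5.07 and 2.58 FPKM. The endosomal motors Kif13b, Kif13a and Kif16b had log2 ratios of -0.78, -0.21 and 0.18, and that of Kif13a was 0.08 relative to the median gene. Kifc3, a minus-end motor known from epithelial junctions and Golgi positioning, ran the other way, with 3.31 FPKM in Hb9 and 10.2 FPKM in A2. Its log2 ratio of 1.62 was the highest of all 58, above 96.9% of all genes. Kifc2 overlaps Foxh1.

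Mitotic kinesins build and pull apart the spindle, move chromosomes and finish cytokinesis. Of the 12, 9 were higher in A2 SMA MNs and 3 lower, with log2 ratios from -0.17 to 1.02, while 65.9% of all genes were lower. Relative to the median gene all 12 were higher. Only 1 of the 12 was past 2-fold, a share near the 6.83% of all genes. This was Kifc1, a minus-end motor that gathers spindle poles, with 22.6 FPKM in Hb9 and 45.9 FPKM in A2, and it was short of 2-fold with a pseudocount of 1 FPKM. Its locus lies on chromosome 17 from 34012611 to 34027606.

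Kif23, a component of the central spindle, had 47.7 and 77.8 FPKM (log2 ratio 0.71). Kif11, the motor that separates the poles and the target of spindle poisons such as monastrol, had 29.9 and 48.4 FPKM (0.69). Kif14, which acts in cytokinesis, had 7.92 and 12.7 FPKM (0.68). These were followed by Kif20a at 73.4 and 103 FPKM, Kif20b at 22.3 and 30.2 FPKM, the centromeric depolymerase Kif2c at 51.3 and 69.2 FPKM, and Kif18a, which dampens chromosome movement, at 17.4 and 21.7 FPKM.

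Near equal levels were found for the remaining mitotic motors. Kif18b had 38.1 FPKM in Hb9 and 38.7 FPKM in A2. Kif15, a backup of Kif11, had 25.6 and 24.5 FPKM, and the chromosome-bound motor Kif4 had 37.7 and 35.6 FPKM. Kif22, another chromosome-bound motor, had 142 and 127 FPKM in an entry of 5 symbols in all, beside Maz. Kif18b, Kif4, Kif18a and Kif20a also lie in intervals with other expressed genes, of up to 407 FPKM for Kif18b. Kif4, Kif15 and Kif22 had log2 ratios of -0.08, -0.06 and -0.17, which became 0.21, 0.23 and 0.12 relative to the median gene. Kif11, Kif20a, Kif20b, Kif22 and Kif23 have the status FAIL, and without them the median of the mitotic kinesins was 0.32 in place of 0.44. The summed level of the 12 was 516 FPKM in Hb9 and 635 FPKM in A2. That of the axonal kinesins was 731 and 271 FPKM, so the axonal sum was 1.42 times the mitotic sum in the control cells and 0.427 times in the SMA cells.

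Promoter sequence, which played no part in choosing these genes, was compared between the roles. Cell cycle genes of the G2 and M phases often carry a CHR element, the binding site of the DREAM and MuvB complexes, near the transcription start, and often a CCAAT box upstream of it. RefSeq promoters on GRCm38.p6 (250 bases before to 50 after the start) were found for 47 of the 61 motor genes. Dctn4, Dctn6, Dync1li2, Dync2li1, Dynll2, Kif13b, Kif19a, Kif20a, Kif21b, Kif5a, Kif5b, Kifc2, Kifc3 and Klc2 had no entry. The letters TTTGAA or TTTAAA, on either strand, were present in 10 of 11 mitotic kinesins (90.9%, exact 95% interval 58.7% to 99.8%, which covers counting error only), against 30.6% of all 27025 genes with a promoter. Within 50 bases of the start they were present in 9 of the 11 and in 9.54% of all genes. Among the other 36 motor genes the whole window held them in 7 and the 50 bases around the start in 2. In both windows Kif1a, at the second of its listed starts, was the axonal kinesin with a match. The letters CCAAT were present in 7 of the 11 mitotic kinesins and 41.1% of all genes, and in 3 of the 7 axonal ones.

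The stretches below run from 70 bases before the first listed start to 30 bases after it. They show how close the match sits to the start in the 9 mitotic kinesins that have one inside this stretch. For contrast they are followed by the 6 axonal kinesins with a promoter entry that were more than 2-fold lower in A2, of which Kif3a has a CCAAT match here. They are written 5′ to 3′ on the gene's strand, and capitals mark the CHR and CCAAT matches on either strand, so that TTCAAA and ATTGG are matches read on the other strand.
Kif11: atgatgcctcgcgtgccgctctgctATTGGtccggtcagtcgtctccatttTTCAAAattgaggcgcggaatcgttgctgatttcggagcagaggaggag
Kif14: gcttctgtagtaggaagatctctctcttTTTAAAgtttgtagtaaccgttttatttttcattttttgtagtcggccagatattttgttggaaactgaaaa
Kif15: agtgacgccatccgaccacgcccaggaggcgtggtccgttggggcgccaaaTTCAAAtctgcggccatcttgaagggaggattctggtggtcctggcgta
Kif18b: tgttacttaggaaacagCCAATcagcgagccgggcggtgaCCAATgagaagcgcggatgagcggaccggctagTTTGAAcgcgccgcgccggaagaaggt
Kif20b: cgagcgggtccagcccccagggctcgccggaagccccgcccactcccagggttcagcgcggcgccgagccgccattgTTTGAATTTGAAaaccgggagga
Kif22: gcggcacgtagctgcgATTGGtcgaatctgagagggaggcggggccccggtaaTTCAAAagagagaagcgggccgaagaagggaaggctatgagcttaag
Kif23: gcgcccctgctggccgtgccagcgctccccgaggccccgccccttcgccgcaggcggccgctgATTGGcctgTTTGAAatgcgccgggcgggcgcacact
Kif4: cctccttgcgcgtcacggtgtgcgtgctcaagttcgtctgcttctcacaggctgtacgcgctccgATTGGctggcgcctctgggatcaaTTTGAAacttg
Kifc1: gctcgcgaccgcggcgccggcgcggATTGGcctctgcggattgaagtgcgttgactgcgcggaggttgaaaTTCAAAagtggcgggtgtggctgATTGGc
Kif1a: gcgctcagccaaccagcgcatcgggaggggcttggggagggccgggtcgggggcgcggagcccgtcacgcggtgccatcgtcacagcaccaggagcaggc
Kif1b: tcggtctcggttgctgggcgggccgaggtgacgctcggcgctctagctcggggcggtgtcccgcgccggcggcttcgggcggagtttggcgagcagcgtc
Kif21a: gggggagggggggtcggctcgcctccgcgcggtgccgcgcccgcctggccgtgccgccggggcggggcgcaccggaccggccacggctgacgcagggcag
Kif3a: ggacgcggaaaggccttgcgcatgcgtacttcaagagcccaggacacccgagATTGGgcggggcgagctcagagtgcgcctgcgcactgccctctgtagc
Kif3c: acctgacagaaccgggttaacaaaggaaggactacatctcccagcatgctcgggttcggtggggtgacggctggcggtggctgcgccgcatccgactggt
Kif5c: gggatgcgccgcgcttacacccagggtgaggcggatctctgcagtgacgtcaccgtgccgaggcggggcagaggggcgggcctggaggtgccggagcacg

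In GRCm38.p6 these stretches lie at chr19:37376312-37376411 (Kif11, plus strand), chr1:136467778-136467877 (Kif14, plus), chr9:122951011-122951110 (Kif15, plus), chr11:102925095-102925194 (Kif18b, minus), chr19:34922288-34922387 (Kif20b, plus), chr7:127042391-127042490 (Kif22, minus), chr9:61946770-61946869 (Kif23, minus), chrX:100625995-100626094 (Kif4, plus), chr17:33890604-33890703 (Kifc1, minus), chr1:93101845-93101944 (Kif1a, minus), chr4:149307704-149307803 (Kif1b, minus), chr15:91049922-91050021 (Kif21a, minus), chr11:53567299-53567398 (Kif3a, plus), chr12:3365062-3365161 (Kif3c, plus) and chr2:49619216-49619315 (Kif5c, plus). The CHR match starts 19 bases before the start in both Kif11 and Kif15, 17 before it in Kif22, and at base 3 of the transcript in Kif23. The mitotic promoters had a median GC content of 60.7% and the axonal ones 62.0%. Of all promoters within the GC range of the mitotic ones, 25.4% held a CHR match. A match of letters is a description and does not show binding.

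**Figure D4:**
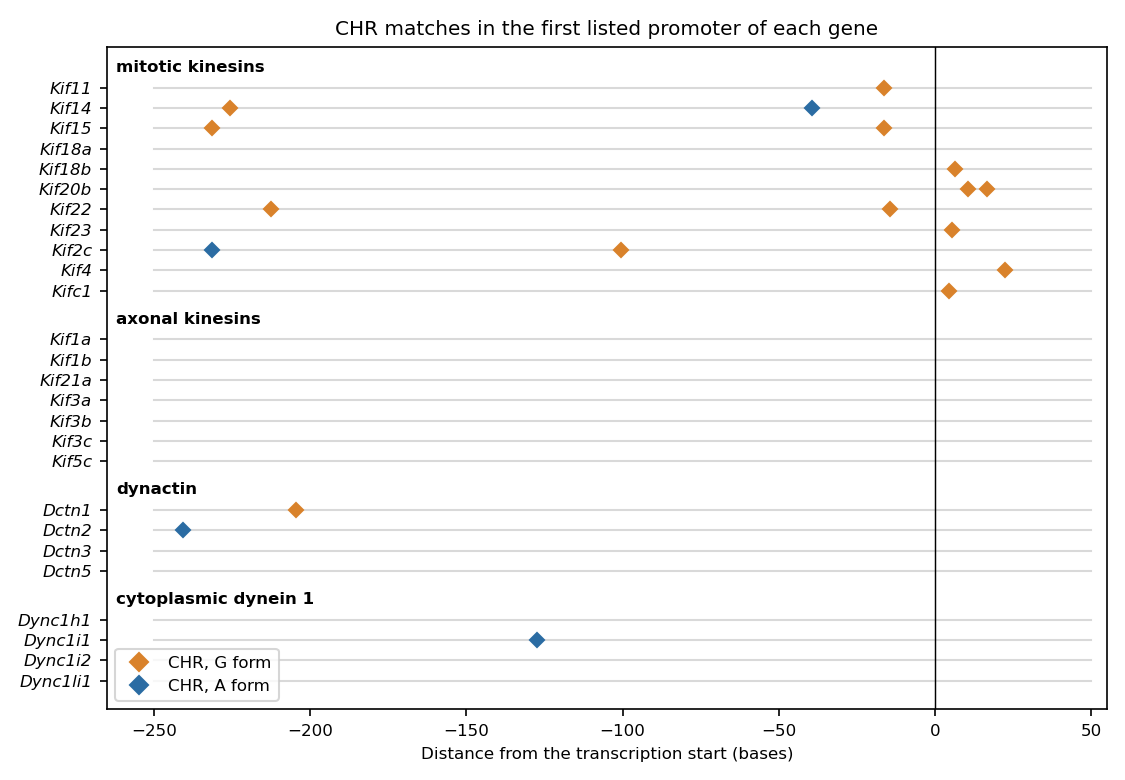
Position of each CHR match (diamonds, orange for the form with G and blue for the form with A) relative to the transcription start in the first listed promoter of mitotic kinesins, axonal kinesins, dynactin and cytoplasmic dynein 1, on an axis in bases. Among mitotic kinesins 9 of 11 have a diamond within 50 bases of the start, and no axonal kinesin has any in the first listed promoter.

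Kinesins of cilia and those in no other list were mostly lower in A2, 8 of 9 past the filter, with a median log2 ratio of -0.61, or -0.32 relative to the median gene. Of all genes 65.9% were lower. Kif19a, a depolymerase that limits the length of motile cilia, had 27.8 FPKM in Hb9 and 1.99 FPKM in A2, 13.995-fold lower. Its log2 ratio of -3.81 was the lowest of all motor genes here, and 2.18% of all genes had a lower one. Its locus lies on chromosome 11 from 114626702 to 114652122. Of 4 genes of multiciliated cells, Foxj1, the master regulator of motile cilia, had 9.59 and 1.34 FPKM (log2 ratio -2.84), while Dnaic1, Ccdc39 and Rsph1 had log2 ratios of -0.86, -0.88 and -0.61. Ccdc39 is named after its value was seen.

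Kif6, a ciliary motor, had 2.33 and 0.733 FPKM. Kif7, which regulates Hedgehog signalling at the tip of the primary cilium, had 8.46 FPKM in Hb9 and 5.06 FPKM in A2 (log2 ratio -0.74), in an interval with other entries of up to 42.5 FPKM. The unconventional members Kif26a and Kif26b had log2 ratios of -0.61 (status FAIL) and -1.09, and Kif9 and Kif27, also ciliary, stayed near 1 FPKM in both genotypes. Kif2a, a depolymerase that prunes axon branches and also works on spindles, had 80.3 and 61.8 FPKM (log2 ratio -0.38). Together with Kif2c it gave a kinesin-13 sum of 132 FPKM in Hb9 and 131 FPKM in A2, with the share of Kif2a at 61.0% and 47.2%. Kif24, which acts at centrioles and shares its interval with Ubap1, had 9.77 and 10.6 FPKM.

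Cytoplasmic dynein 1 is the motor for nearly all transport toward the cell body. All 5 of its subunits outside the light chains were lower in A2, 2 of them past 2-fold (65.9% and 22.4% of all genes). Relative to the median gene these 2, Dync1i1 and Dync1li2, were short of 2-fold (log2 ratios -0.95 and -0.90). Dync1li1 was the one that turned higher relative to the median gene (log2 ratio -0.23, and 0.06 after centring). The heavy chain Dync1h1, on chromosome 12 from 111839662 to 111905155, had 239 FPKM in Hb9 and 139 FPKM in A2 (log2 ratio -0.78). The intermediate chain Dync1i2, which binds dynactin, had 149.9 and 84.8 FPKM (log2 ratio -0.82, status FAIL). It was nearly the sole intermediate chain, since Dync1i1, the neuronal form, had 1.13 and 0.476 FPKM. The light intermediate chains, which attach adaptors, differed from each other: Dync1li2 had 53.3 and 23.3 FPKM (log2 ratio -1.19) and Dync1li1 had 100.03 and 85.2 FPKM.

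Dynein light chains were the part of the complex with no shared direction. Dynll2 had 287 FPKM in Hb9 and 165 FPKM in A2 (log2 ratio -0.79), while its close relative Dynll1 had 14.2 and 16.2 FPKM. Both encode the LC8 hub protein, which also serves many partners outside dynein. Dynlrb1, of the roadblock class, had 156 FPKM in each genotype (log2 ratio 0.01, status FAIL, in an interval shared with Map1lc3a and Pigu). Dynein 2 runs inside cilia. Its heavy chain Dync2h1 had 4.75 and 2.52 FPKM and its light intermediate chain Dync2li1 had 34.2 and 25.9 FPKM.

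Dynactin links dynein to cargo and makes it processive. Of its subunits, the 6 chosen here lay in a narrow band, all lower in A2 (65.9% of all genes were), none past 2-fold. Their log2 ratios ran from -0.91 to -0.59, with a median of -0.86. The Arp1 and CapZ genes of dynactin past the filter, given with the partners below, lay outside this band. Their log2 ratios were -1.24 for Actr1a, 0.04 for Actr1b, 0.04 for Capzb and -0.02 for Capza2. Dctn1, the large p150Glued arm that contacts microtubules and is mutated in an inherited motor neuron disease, had 150.2 FPKM in Hb9 and 82.7 FPKM in A2. Dctn2, the dynamitin of the shoulder, had 156 and 104 FPKM. Dctn3 had 126 and 68.5 FPKM, and the pointed-end subunits Dctn4, Dctn5 and Dctn6 had 46.6 and 24.8, 56.3 and 31.3, and 98.9 and 54.7 FPKM. Each of the 6 also had a lower ratio than the median gene. Dctn2 and Dctn3 lie in intervals with other expressed genes. The ratio of Dctn1 to Dync1h1 was 0.628 in Hb9 and 0.595 in A2, and that of Dync1i2 to Dync1h1 was 0.626 and 0.610.

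The levels of dynein and kinesin-1 heavy chains stood in a different proportion in each genotype. The FPKM of Dync1h1 was 1.40 times that of Kif5c in the control cells and 7.203 times in the SMA cells, but 2.42 and 1.31 times that of Kif5b.

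Partners of these motors that the rule does not take were looked at in the same way. Of 15 kinesin partners past the filter, 14 were lower in A2 and 5 were past 2-fold (65.9% and 22.4% of all genes), with a median log2 ratio of -0.69. The kinesin-1 adaptor Fez1, with 121 FPKM in Hb9 and 8.57 FPKM in A2, had the lowest ratio of the list at -3.81. The JIP adaptors Mapk8ip1, Mapk8ip2 and Mapk8ip3 had log2 ratios of -2.12, -2.80 and -1.29, and the mitochondrial Rhot2 one of -0.38. Mapk8ip3 and Rhot2 have the status FAIL, in entries of 2 and 4 symbols. Kifap3, the accessory subunit of kinesin-2, had 30.04 and 29.3 FPKM (log2 ratio -0.03, and 0.26 relative to the median gene). Of 15 dynein partners, 11 were lower and 4 higher, 2 were lower past 2-fold, and the median was -0.54. The first share is near that of all genes and the second is below it. The filament of dynactin is made of actin-related protein Arp1 and capped by the CapZ dimer. Capzb had 316 and 325 FPKM, Capza2 181 and 179 FPKM, and the Arp1 gene Actr1b 139.7 and 144 FPKM. Kifap3 and the second Arp1 gene, Actr1a, which had 105 and 44.2 FPKM, are given after their values were seen.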

How the data were processed

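Libraries were made with a TruSeq RNA kit, which does not mark strand. By the study's methods and the submitters' processing notes, FastQC 0.10.1 and cutadapt served for quality control and adapter removal, TopHat2 2.04 aligned reads to NCBI m37 with Ensembl annotation, and Cufflinks and Cuffdiff gave the levels. The deposited values are FPKM, which the authors computed as 1 value per genotype from 3 samples. The table also holds the authors' log2 fold changes, test statistics, p and q. These were not used. The status column was used to mark entries.

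Log2 ratios of A2 over Hb9 were taken without a pseudocount for entries with at least 1 FPKM in either genotype and above 0 in both, and "more than 2-fold" means an absolute log2 ratio above 1. A locus that several symbols share counted once in the background. With 1 value per genotype no new test was possible. The table holds no read counts, and FPKM averaged over samples has no fixed step per read, so no counting error was set on single values. Positions in m37 are given 1-based.

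Members, role lists, partner and marker lists were chosen with earlier results of these data known. All members past the filter could be named. From other lists the 3 most abundant genes and those past 4-fold could be named, with exceptions stated. Some items are not reported here. Promoters came from RefSeq (GRCm38.p6) by symbol. Python 3.11.15, numpy 2.4.6, pandas 2.3.3, scipy 1.17.1 and matplotlib 3.10.9 were used, and the functions were tested on simulated data.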

Additional observations from a re-analysis of the deposited data

How the results depend on the processing

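No paired analysis was possible because the table holds 1 pooled value per genotype, and for the same reason no sample could be left out. The medians of axonal kinesins, mitotic kinesins and dynein with dynactin were recomputed with pseudocounts of 0.1 and 1 FPKM and other FPKM filters. Further settings were scaling to the median gene or the upper quartile, summed entries, no status FAIL, and no entries of several symbols. The last setting kept 56 of the 58 motor genes, and genes that share only an interval stayed in. All the medians kept their direction. They ranged from -2.02 to -1.73, from 0.32 to 0.73 and from -0.85 to -0.54, and the number of motor genes more than 2-fold lower from 10 to 15, while the share of all genes ranged from 16.5% to 24.5%. Relative to the median gene, the 10 of 58 motor genes are close to the 16.5% of all genes, since Kif3a, Kif26b, Dync1i1 and Dync1li2 are then short of 2-fold. Adding the other cargo kinesins to the axonal list moved its median to -0.97 and its distance from the mitotic median to -1.41. A pseudocount of 1 FPKM left 1 motor gene more than 2-fold higher, and brought the log2 ratios of Dync1i1, Kif6 and Kif26b to -0.53, -0.94 and -0.57, short of 2-fold, as did 0.1 FPKM for Kif26b (-0.997). At a threshold of 1.5-fold 30 motor genes were lower and 5 higher (35.4% and 12.7% of all genes), and at 4-fold 6 and 0 (8.88% and 1.80%). Scaling to the median gene or the upper quartile turned the sign of Dync1li1, Kif13a, Kif15, Kif22 and Kif4. The status FAIL marks 24.1% of the motor genes past the filter and 13.98% of all entries. For 19 of the 61 another entry of at least 1 FPKM lies in the same interval. The share of mitotic kinesins with a CHR match was 81.8% within 50 bases of the start and 90.9% with TTTGAA alone, settings chosen after seeing the data.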
